A study of Mus musculus with 8 samples.

Results

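RasV12-expressing ASZ cells were compared with wild-type ASZ cells, both under DMSO, the vehicle. ASZ is a mouse basal cell carcinoma line, and RasV12 is an activated Ras. The comparison used 4 of the 8 RNA-seq libraries of the study, 2 per group, from wild-type cells given DMSO (ASZ DMSO) and from RasV12 cells given DMSO (RasV12 DMSO). The other 2 groups were the same cells given CBD and serve here only as a second look at the same genes. The labels give no dose or time, do not spell out CBD, and name neither the Ras gene carried, its promoter, nor whether the RasV12 cells are 1 clone. They also do not say whether the 2 libraries of a group came from separate cultures. All groups share the tumour line.

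Levels were the authors' FPKM (fragments per kilobase of transcript, scaled to the sequencing depth), 1 value per gene and group over its 2 libraries, so no SD and no replicate test can be given. Each line had its own deposited table, and the groups compared here stand in different tables. Genes were joined by symbol, and the 10895 genes at 1 FPKM or more in either DMSO group were kept. The difference given throughout is that of log2(FPKM + 1), RasV12 minus wild-type, less its median over these genes. It understates the change of low genes. Before centring the median was 0.16, a 1.12-fold higher level in RasV12 cells on the FPKM + 1 scale. Pairs of FPKM values stand in the order wild-type, then RasV12. Estimated from the smallest FPKM steps, the depth was about 14.3 fragments per wild-type library and 16.6 per RasV12 library, in units of 1e6.

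Ras is a small GTPase that, when bound to GTP, activates the Raf, MEK and ERK kinases, and ERK in turn switches on transcription of growth genes and of its own inhibitors. Basal cell carcinomas are keratinocyte tumours that depend on Hedgehog signalling, in which Smoothened and the Gli transcription factors act through the primary cilium. The title of the study names a switch from Hedgehog to Ras/MAPK signalling when cilia are lost, so the members of both pathways are described first.

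Most genes stood close together in the 2 groups. With a 2-fold difference on the centred scale as the limit, 434 genes (3.98%) were higher in RasV12 cells, 237 genes (2.18%) were lower, and 10224 (93.8%) were neither. The central 9 in 10 genes lay between -0.72 and 0.90. At 4-fold the counts were 103 and 40, and at 8-fold they were 36 and 11. Without centring the limit was passed by 634 and 170 genes, so that 78.9% of the called genes were higher in place of 64.7%. The genes nearest the limit were Tnf just inside (0.0643 and 1.38 FPKM) and Kat8 just outside (5.16 and 12.8 FPKM) on the higher side. On the lower side they were Tmem245 just inside (14.3 and 7.58 FPKM) and Pogk just outside (3.03 and 1.26 FPKM).

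The only measure of error in the files was a p-value of the authors, for CBD versus DMSO within each line. The standard error of the log2 ratio that those p-values imply had a median of 0.43 in wild-type and 0.48 in RasV12 cells for genes at 1 to 3 FPKM. It was 0.22 and 0.27 for genes at 100 FPKM or more. These are medians over genes with p above 0.01, so many genes had a larger error. They give a scale and are no test of the differences described here. No error was taken below 1 FPKM, where 478 of the compared genes stood in wild-type and 198 in RasV12 cells. Each of those genes entered only through its level in the other group. The errors given here are for ratios without the added 1 FPKM and do not cover what differs between the tables. Differences also followed transcript length. The median was 0.12 in the tenth of genes with the shortest transcripts, where 88 genes were higher and 32 lower. In the tenth with the longest it was -0.24, with 10 higher and 46 lower. The part of length in any single difference was not tested.

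**Figure D1:**
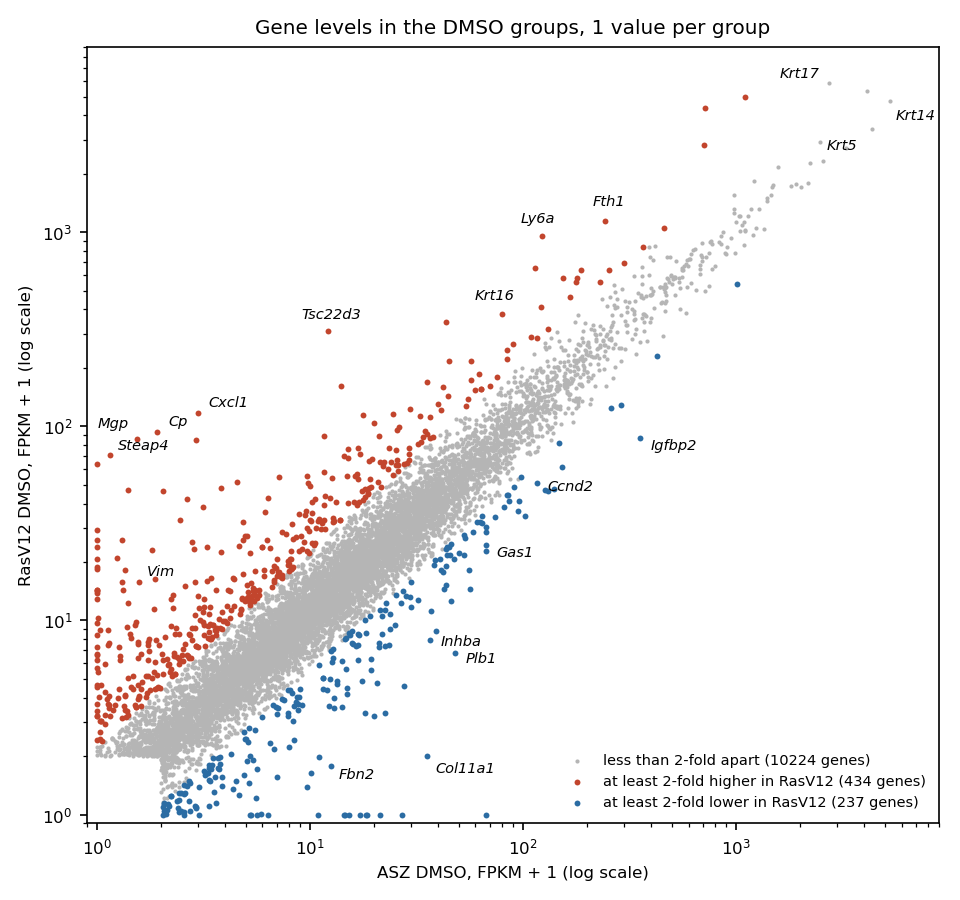
Level of each of the 10895 genes in the wild-type group (x axis) and the RasV12 group (y axis) under DMSO, as FPKM + 1 on log axes, 1 point per gene and 1 value per group. The 434 red genes lie at least 2-fold above and the 237 blue genes at least 2-fold below the centre of the cloud, while Krt14 and Krt5 lie within it at the top right.

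The cells were keratinocytes by their transcripts in both groups. Krt14, the basal keratin, stood at 5277 and 4745 FPKM, its partner Krt5 at 4360.1 and 3408 FPKM, and the basal cell transcription factor Trp63 at 64.6 and 92.0 FPKM. All 8 keratinocyte markers were compared and none differed 2-fold. Of 8 fibroblast markers 7 could be read in both groups. None of these 7, of 6 melanocyte or of 6 muscle and fat markers reached 1 FPKM in either group, nor did any of 5 sex chromosome transcripts. Of 8 immune markers Ptprc, Adgre1 and Tyrobp, which define leukocytes and macrophages, were at or near 0. The lysosomal marker Cd68, at 8.99 and 31.7 FPKM, and the endotoxin co-receptor Cd14, at 1.52 and 3.19 FPKM, were not. Of 6 endothelial markers only Pecam1 was measured, at 15.3 and 16.4 FPKM, with Cdh5 and Kdr at 0. Of 6 Merkel and neuronal markers 3 were compared. The neuronal tubulin Tubb3 was lower in RasV12 cells (37.3 and 18.3 FPKM). Sox2 was well expressed in both groups (26.2 and 19.3 FPKM, difference -0.58), and the remaining one differed by 0.57. Atoh1 and Chga were at 0. In such bulk samples fewer cells of a kind and less RNA per cell cannot be told apart.

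Neither Hras nor Nras was higher in the RasV12 group. Hras stood at 59.9 and 60.2 FPKM and Nras at 30.3 and 33.7 FPKM, with differences of -0.15 and -0.01. The deposited values are gene levels and do not separate alleles. Whether reads from the construct were counted toward either gene was not tested, so the label could not be checked from its target. Among the kinases below Ras, Braf stood at 5.95 and 4.56 FPKM and Map2k1 (MEK1) at 20.4 and 21.7 FPKM, both within 2-fold. Mapk3, which encodes ERK1, stood at 28.4 and 65.9 FPKM (difference 1.02). Mapk3 was the only one of 30 pathway components past 2-fold (3.33% higher, beside 3.98% of all genes). It lay just within 2-fold when the FPKM sums were set equal (0.96), with a median per length class (0.94) and with a pseudocount of 5 FPKM (0.98). The median of the 30 was -0.09, against 0 by construction for all genes, and it was 0.07 without centring. Among the receptors upstream, Egfr (23.7 and 20.3 FPKM), Erbb2 (32.7 and 33.9 FPKM) and Met (46.2 and 33.2 FPKM) all stayed within 2-fold. Fgfr1, on repeated rows of the wild-type table, and Rasgrp1, below 1 FPKM, were not compared.

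Among the genes that respond to ERK, Dusp6 and Spry2, both inhibitors in its feedback loop, were higher in RasV12 cells, as were Ier3 and Hmga2. Of 25 output and feedback genes compared, 4 (16%) were higher and 1 (4.0%) lower, beside 3.98% and 2.18% of all genes, with a median of 0.31. Dusp6, the phosphatase that removes the activating phosphates from ERK, stood at 4.48 and 12.5 FPKM (difference 1.14). Spry2, a feedback inhibitor of receptor signalling to Ras, stood at 2.15 and 8.82 FPKM (1.48). Ier3, an immediate early gene that also responds to stress, stood at 24.8 and 94.9 FPKM (1.73). The chromatin protein Hmga2, usually restricted to embryonic and tumour cells, stood at 2.19 and 10.7 FPKM (1.71). These 4 genes were all measurable in wild-type cells, so none entered only through its RasV12 level. With a pseudocount of 5 FPKM Dusp6 (0.78) and Spry2 (0.84) were within 2-fold.

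Other feedback genes were under 2-fold on the centred FPKM + 1 scale. Without centring 7 of the 25 genes were higher and 1 lower, and with a pseudocount of 0.1 FPKM 6 were higher and 1 lower. Dusp4 (0.312 and 1.07 FPKM, difference 0.49), Spred1 (0.21) and Spred2 (0.31) were among those under 2-fold on the centred scale. Dusp7 stood at 23.0 and 49.7 FPKM, Spry1 at 1.22 and 3.62 FPKM, and the ETS factor Etv4 at 3.61 and 7.43 FPKM. Ccnd1, which encodes the cyclin that Ras induces in many cells, stood at 36.5 and 41.8 FPKM and differed by only 0.03. Has2, a hyaluronan synthase, was the one member lower in RasV12 cells, at 4.64 and 0.726 FPKM (difference -1.87). Of the 30 listed outputs 5 were below 1 FPKM in both groups and were not compared, among them Spry4, Dusp5 and Fosl1.

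Immediate early genes, which ERK and stress kinases switch on within minutes, were also higher in part. Of 22 compared, 4 (18.2%) were higher and none lower, beside 3.98% and 2.18% of all genes, with a median of 0.42. Dusp1, a phosphatase for p38, JNK and ERK, stood at 6.19 and 54.1 FPKM (difference 2.77). The stress factor Atf3 stood at 2.36 and 9.82 FPKM, Klf6 at 26.6 and 63.0 FPKM, and the antiproliferative Btg2 at 6.35 and 15.8 FPKM. With equal FPKM sums 2 were left, as Klf6 (0.99) and Btg2 (0.98) were then within 2-fold. The AP-1 gene Jun was under 2-fold (43.9 and 89.8 FPKM), Egr1 was low in both groups (2.80 and 3.90 FPKM), and Myc stood lower in RasV12 cells by less than 2-fold (36.5 and 23.1 FPKM). The ligands of the EGF receptor did not share this side: of 8 listed, the 4 compared lay between -0.83 and 0.64.

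**Figure D2:**
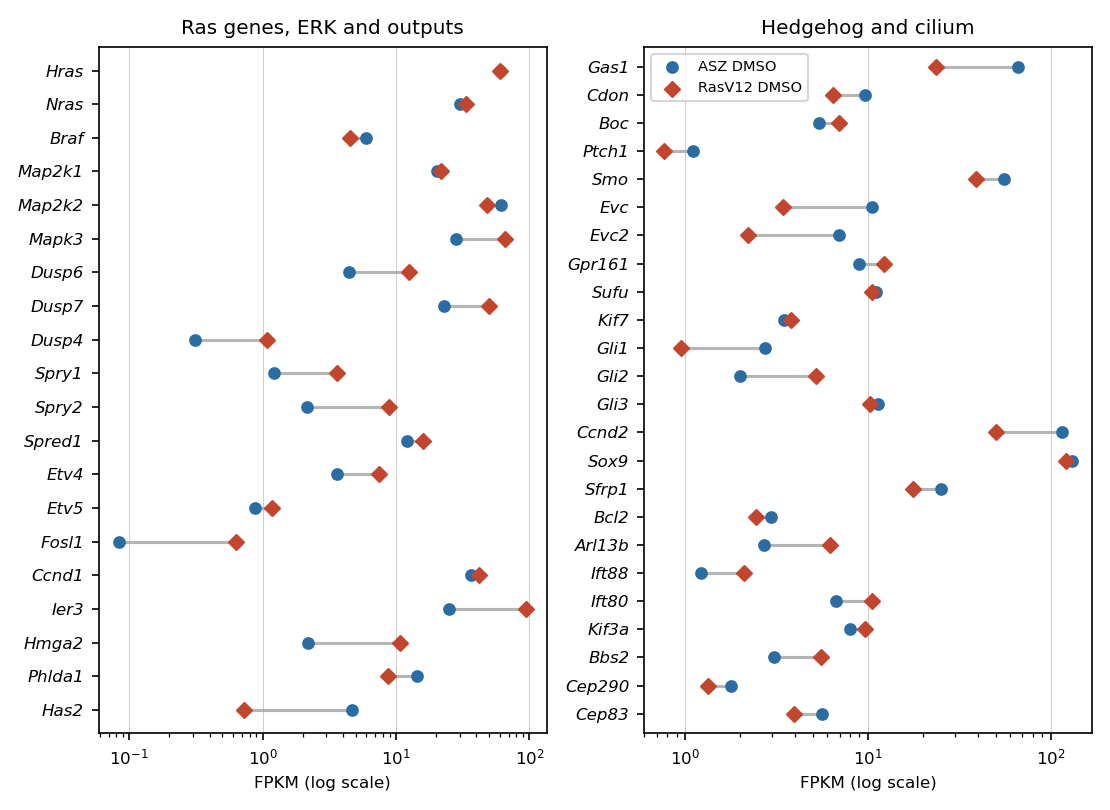
Levels in FPKM (log axis) of Ras/MAPK genes (left) and of Hedgehog and cilium genes (right), with a circle for wild-type and a diamond for RasV12 cells under DMSO, 1 value per group. For Hras and Nras the circle and the diamond lie close together. Dusp6, Spry2, Ier3 and Hmga2 lie to the right in RasV12 cells, and Gas1, Evc, Evc2, Gli1 and Ccnd2 lie to the left.

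The Hedgehog readout genes were low from the start in wild-type ASZ cells. Gli1, both an effector and the most used target of the pathway, stood at 2.73 and 0.953 FPKM (difference -1.10). Ptch1, the receptor and a target, stood at 1.10 and 0.771 FPKM (-0.41), near the lower limit of what was compared. Hhip, a further target, was below 0.01 FPKM in both groups. Ccnd2, a D-type cyclin listed among the targets, was far more abundant, at 115 and 50.1 FPKM (-1.35). Of 11 targets compared none was higher and 2 (18.2%), Gli1 and Ccnd2, were lower, beside 3.98% and 2.18% of all genes. The median of the 11 was -0.27. Without centring Gli1 stood at -0.93, within 2-fold, which left 1. The median was -0.10 without centring and -0.12 when each length class had its own median. Sox9, a hair follicle progenitor factor, hardly differed (130.0 and 121 FPKM).

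Among the components of the pathway, 3 of 24 (12.5%) were lower and none was higher, beside 2.18% and 3.98% of all genes. Gas1, a co-receptor that helps cells take up the Hedgehog ligand, stood at 65.9 and 23.5 FPKM (difference -1.61). Evc and Evc2, partners at the base of the cilium that pass the signal on from Smoothened, stood at 10.5 and 3.44 FPKM and at 6.92 and 2.22 FPKM (-1.54 and -1.46). Smo itself stood at 55.7 and 39.2 FPKM and Cdon, another co-receptor, at 9.65 and 6.43 FPKM, both within 2-fold. With a pseudocount of 5 FPKM Evc (-0.99) and Evc2 (-0.83) were within 2-fold as well. Gli2, the main activator, stood higher in RasV12 cells without passing the limit (2.01 and 5.19 FPKM, difference 0.88). Without centring, and with a pseudocount of 0.1 FPKM, Gli2 was past 2-fold, the only component higher, beside 3 lower in each case. The repressor gene Gli3, the inhibitor Sufu and the ciliary kinesin Kif7 differed by -0.30, -0.22 and -0.07. The median of the 24 was -0.08, and 0.09 without centring. The ligands Shh and Dhh were listed at 0 in both groups.

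Of 66 genes listed for cilium assembly and transport, 62 were compared, and none was 2-fold higher or lower, beside 3.98% and 2.18% of all genes. The median was 0.11, with 43 above and 19 below 0. Their differences ran from -0.57 for Cep83, a distal appendage gene, to 0.80 for Arl13b, a small GTPase of the ciliary membrane (2.70 and 6.22 FPKM). The intraflagellar transport gene Ift88 stood at 1.23 and 2.09 FPKM, and Kif3a, a subunit of the motor that carries cargo outward, at 8.02 and 9.60 FPKM. Transcript levels say nothing of how many cells carried a cilium.

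Genes were ranked among those above 0 in both groups and at 5 FPKM or more in the higher one. The 15 that differed most upward in that class were led by Steap4, a metal reductase, at 0.152 and 70.4 FPKM (difference 5.79). Mgp, a secreted inhibitor of calcification, stood at 0.550 and 85.5 FPKM (5.64), and Cp, the copper-carrying ferroxidase ceruloplasmin, at 0.931 and 92.5 FPKM (5.43). Tsc22d3, a glucocorticoid-induced leucine zipper gene, stood at 11.2 and 307 FPKM (4.49). Unlike the others at the top, Tsc22d3 was well expressed in wild-type cells too. The neighbouring membrane protein genes Tmem176b and Tmem176a stood at 1.93 and 83.7 FPKM and at 1.05 and 45.2 FPKM. Depp1, a target of FOXO factors, stood at 0.400 and 46.0 FPKM and Spp1, which encodes the matrix cytokine osteopontin, at 1.67 and 41.3 FPKM. Cxcl1 and Ccl2, Krtdap, and Ehf, Hcar2, Mgst1 and Kcnj15 complete the 15. The last 4 are an epithelial ETS factor (0.366 and 17.3 FPKM), a nicotinic acid receptor (1.46 and 31.8 FPKM), a microsomal glutathione transferase (0.812 and 22.2 FPKM) and a potassium channel (2.85 and 47.1 FPKM).

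The 15 lowest genes of the same class included matrix genes and secreted regulators of growth factors. Col11a1, a fibrillar collagen chain, stood at 34.5 and 0.991 FPKM (difference -4.32), Fbn2, fibrillin 2, at 11.5 and 0.777 FPKM (-2.98), and Adamts5, an aggrecanase, at 8.67 and 0.390 FPKM (-2.96). Col11a1, Fbn2, Adamts5, Mme and Pi15 have long transcripts, of 7667, 11041, 10791, 8039 and 6923 bases. The binding proteins of insulin-like growth factors Igfbp5 (21.6 and 2.35 FPKM) and Igfbp2 (355 and 86.1 FPKM) were both lower. So was Inhba, the activin A subunit, at 35.8 and 6.92 FPKM (-2.38). Plb1, a membrane phospholipase, stood at 47.1 and 5.79 FPKM, and Cyp26b1, which degrades retinoic acid, at 26.9 and 3.58 FPKM. Cdh11, a cadherin of mesenchymal cells, stood at 10.1 and 0.986 FPKM. The other 6 were Cpa4, Mme, Pi15, Mest, Fbp2 and Ucp2, with differences from -2.80 to -2.28.

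**Figure D3:**
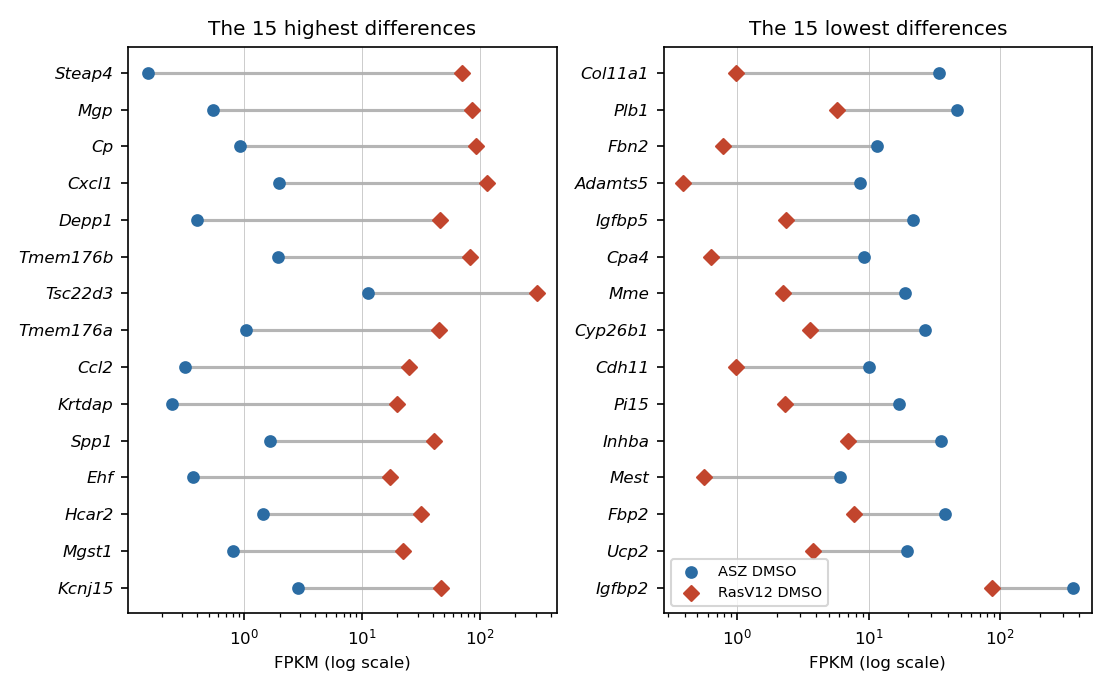
Levels in FPKM (log axis) of the 15 genes with the highest and the 15 with the lowest difference among genes above 0 in both groups and at 5 FPKM or more in the higher one. Circles are wild-type and diamonds RasV12 cells under DMSO, 1 value per group. The highest, Steap4, stands at 0.152 and 70.4 FPKM, and the lowest, Col11a1, at 34.5 and 0.991 FPKM.

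Chemokines and genes of NF-kB feedback were higher in part. Of 28 listed genes 14 were compared, with a median of 1.10. Of these, 8 (57.1%) were higher and 1 (7.14%) was lower, beside 3.98% and 2.18% of all genes. Of the 14, 6 were under 1 FPKM in wild-type cells and none in RasV12 cells, so these entered only through the RasV12 level. They include 3 of the 8 higher ones, Ccl2, Icam1 and Tnf. With every gene above 0 in either group included, the median over 23 genes was 0.66. Cxcl1, a chemokine that draws neutrophils, stood at 1.99 and 116 FPKM (difference 5.12). Ccl2, which draws monocytes, stood at 0.317 and 24.9 FPKM (4.14), and the adhesion receptor Icam1 at 0.317 and 14.9 FPKM (3.43). Members of the IkB family that NF-kB itself induces were higher from a measurable base. Nfkbia, which encodes IkB-alpha, stood at 13.4 and 69.1 FPKM (2.12) and Nfkbiz, its nuclear relative, at 2.19 and 11.9 FPKM (1.86). Ccl20 (1.04 and 5.25 FPKM), Csf1 (1.04 and 4.27 FPKM) and Tnf (0.0643 and 1.38 FPKM) were the others. Ptgs2, the inducible cyclooxygenase, was lower, at 16.6 and 3.85 FPKM (-2.02). Tnfaip3, another NF-kB feedback gene, differed by 0.51 (1.96 and 3.72 FPKM).

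These 8 genes come from a list drawn up partly for NF-kB feedback, so matches to the NF-kB consensus among them could be foreseen. Their promoters were looked at because the levels lay on the same side. RefSeq on GRCm38.p6 gave 6 of them (250 bases before to 50 after the start), and 4 held the 10-base NF-kB consensus on either strand: Cxcl1 (chr5:90890995-90891294, plus strand), Nfkbia (chr12:55492598-55492897, minus strand), Ccl20 (chr1:83116516-83116815, plus strand) and Csf1 (chr3:107760420-107760719, minus strand). Those of Cxcl1, with the largest difference, and Nfkbia, the feedback inhibitor, are shown in the direction of transcription with the consensus in capitals.
Cxcl1: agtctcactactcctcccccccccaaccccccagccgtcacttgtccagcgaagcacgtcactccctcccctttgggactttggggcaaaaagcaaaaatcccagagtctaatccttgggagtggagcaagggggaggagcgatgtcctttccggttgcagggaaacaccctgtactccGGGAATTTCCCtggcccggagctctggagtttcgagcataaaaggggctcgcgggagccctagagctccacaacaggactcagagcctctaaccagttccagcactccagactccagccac
Nfkbia: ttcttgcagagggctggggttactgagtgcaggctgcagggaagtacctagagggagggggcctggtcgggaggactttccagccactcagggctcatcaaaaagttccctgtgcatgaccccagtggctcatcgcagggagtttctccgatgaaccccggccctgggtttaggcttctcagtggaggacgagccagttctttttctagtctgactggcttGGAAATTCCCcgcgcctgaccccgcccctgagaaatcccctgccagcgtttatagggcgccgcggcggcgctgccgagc
The capitals of Cxcl1 join 2 matches, 1 per strand, that overlap. The matches began 71 and 70 bases before the start of Cxcl1, 29 before that of Nfkbia, 80 before that of Ccl20 and 154 before that of Csf1, and the windows of Icam1 and Tnf held none. The consensus was in 4.35% of 27025 promoters and in 4.92% of those of the protein-coding genes compared. It was in 10.8% (33 of 305) of the promoters of genes higher in RasV12 cells and in 4.08% (6 of 147) of those lower. The AP-1 motif TGANTCA was in 7.93% of all 27025 promoters and in 4.66% of those of the protein-coding genes compared. It was in 7.87% of the promoters of higher genes and in 10.2% of those of lower genes. The Gli motif TGGGTGGTC was in 0.244% of all 27025 promoters and in 0.201% (17 of 8452) of those of the protein-coding genes compared. It was in none of the 305 promoters of higher genes or the 147 of lower genes. At such a low share, its absence from sets of that size says nothing. These are counts of letters in a fixed window and show no binding.

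Of 18 interferon response and antigen presentation genes compared, 6 (33.3%) were higher and none was lower, beside 3.98% and 2.18% of all genes. The median was 0.84, and 4 of the 18 were under 1 FPKM in wild-type cells. Gbp2, an interferon-induced GTPase, stood at 0.332 and 13.3 FPKM (difference 3.27), and Irf1, a transcription factor of the response, at 8.96 and 27.8 FPKM (1.37). The class I heavy chain H2-K1 stood at 7.20 and 21.9 FPKM, and a row that joins H2-D1 with neighbouring genes at 20.4 and 64.2 FPKM. B2m, the light chain of class I, was under 2-fold (89.9 and 178 FPKM), as was the peptide transporter Tap1 (1.80 and 4.74 FPKM). Ifit2, an interferon-induced gene, stood at 4.51 and 2.85 FPKM (-0.68), so the list did not share 1 direction.

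The epidermal programme differed gene by gene. Among 28 basal keratinocyte genes 1 was higher (Cldn1, a tight junction gene, 3.27 and 10.4 FPKM) and 1 lower, and the median was -0.02. Without centring 4 were higher and none lower. Krt17, a keratin of basal cell carcinoma and of hair follicles, stood at 2744 and 5902 FPKM (difference 0.94), just under 2-fold. The wound keratin Krt16 stood at 79.0 and 377 FPKM (2.08) and Krt6b at 3.95 and 11.6 FPKM (1.18). The row that holds Krt6a together with Krt82 and Krt85 stood at 297 and 696 FPKM. Under CBD the order turned for Krt6b (8.56 and 5.36 FPKM, difference -1.07) and for that row (605 and 349 FPKM), and Krt16 was within 2-fold (0.97). The third keratin compared, Krt80, stood at 1.98 and 1.27 FPKM under DMSO (-0.56). The median of the 3 was 1.18 under DMSO and -1.01 under CBD. That CBD median is the value of Krt80, which was then under 1 FPKM in both groups (0.886 and 0.309 FPKM). Simple epithelial keratins were near 0 in both groups. Of 16 differentiation genes 3 (18.8%) were higher and 2 (12.5%) lower, beside 3.98% and 2.18% of all genes. Higher were Krtdap, a gene of early differentiation (0.247 and 20.0 FPKM, difference 3.91), and Ppl, the cornified envelope protein periplakin (12.3 and 39.8 FPKM). Grhl3, a factor of barrier formation (0.477 and 3.41 FPKM), was the other. Krtdap and Grhl3 were under 1 FPKM in wild-type cells and entered only through the RasV12 level. Lower were Lgals7, an abundant epithelial galectin (1014 and 538 FPKM), and the lipid transporter Abca12 (2.37 and 0.502 FPKM), while Krt10, the main suprabasal keratin, was low in both groups (2.22 and 2.88 FPKM).

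Of 18 transcription factors of hair follicle and lineage, 2 (11.1%) were higher and 4 (22.2%) lower, beside 3.98% and 2.18% of all genes. Without centring 3 were higher and 1 lower. Id1 and Id3, which block basic helix-loop-helix factors, stood at 28.5 and 122 FPKM and at 56.1 and 216 FPKM (differences 1.90 and 1.77), and Id2 at 14.6 and 32.6 FPKM (0.95). Dlx3, a factor of hair differentiation, stood at 11 and 3.37 FPKM (-1.62), Runx3 at 6.59 and 2.88 FPKM, Tcf7l1, a repressor of Wnt targets in stem cells, at 26.3 and 13.1 FPKM, and Msx2 at 2.20 and 0.672 FPKM. The last 3 were within 2-fold without centring (-0.97, -0.95 and -0.94). The other lineage factors lay between -0.58 and 0.63 apart from Id2.

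Mesenchymal genes did not differ as a block: of 18, 1 (5.56%) was higher and 3 (16.7%) lower, beside 3.98% and 2.18% of all genes. Vim, the intermediate filament of mesenchymal cells, was the only 1 of 18 higher, at 0.580 and 14.7 FPKM (difference 3.15). It was under 1 FPKM in wild-type cells, so it entered only through the RasV12 level. Cdh2 (N-cadherin, 54.7 and 17.2 FPKM), Tnc (tenascin C, 139 and 46.4 FPKM) and Fn1 (fibronectin, 151 and 60.8 FPKM) were lower, with differences of -1.77, -1.73 and -1.47. Snai2, a factor of epithelial to mesenchymal transition, differed by 0.01 (28.7 and 32.4 FPKM). Of 16 proteases and inhibitors 2 (12.5%) were higher, among them the sheddase gene Adam8 (1.21 and 4.42 FPKM), and 2 (12.5%) were lower. The stromelysins Mmp3 (2.32 and 0.634 FPKM) and Mmp10 (1.70 and 0.495 FPKM) were the lower ones, at low levels. Targets of YAP and SRF, which report on cell shape and tension, divided too: Ccn2 (34.5 and 169 FPKM) and the kinase gene Nuak2 (2.50 and 8.46 FPKM) were higher. Ccn1 (52.4 and 25.4 FPKM), Amotl2 (22.8 and 8.08 FPKM), Ptpn14 and Crim1 were lower, so 2 of 18 (11.1%) lay on one side and 4 (22.2%) on the other. Without centring, and with a median per length class, Ptpn14 and Crim1 were within 2-fold, which left 2 on each side.

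Genes of the cell cycle differed by small amounts, with G1/S and G2/M genes mostly on opposite sides. Of 35 genes of G1/S and DNA replication, 29 were below 0 and 6 above, with a median of -0.42. Ccne1 (cyclin E1, 20.0 and 6.62 FPKM, difference -1.63) and the licensing factor Cdc6 (7.64 and 2.79 FPKM, -1.35) were the 2 past 2-fold. Members of the replicative helicase stood on the same side without passing it, such as Mcm2 (50.4 and 28.3 FPKM) and Mcm6 (52.2 and 32.1 FPKM). Of 34 genes of G2/M and mitosis, 33 were above 0, with a median of 0.45. Only Cenpa, the centromere histone, passed 2-fold (54.3 and 137 FPKM, 1.16), followed by the spindle gene Prc1 (42.6 and 93.1 FPKM) and Ube2c (181 and 373 FPKM). Mki67, the proliferation marker, stood at 19.0 and 27.0 FPKM (0.32). Both medians kept their side without centring, at -0.26 and 0.61. Cell cycle inhibitors that oncogenic Ras can induce were under 2-fold: Cdkn2a stood at 99.9 and 165 FPKM (0.56), Cdkn1a at 27.3 and 56.4 FPKM (0.86) and Cdkn2b at 24.1 and 38.7 FPKM (0.50). Of 22 inhibitors and p53 targets, Sesn1 was higher (8.08 and 26.3 FPKM) and Cdkn1c lower (1.08 and 0.152 FPKM). That is 4.55% on each side, beside 3.98% and 2.18% of all genes. Without centring 2 were higher, Sesn1 and Cdkn1a, and none was lower. Trp53 stood at 123 and 118 FPKM.

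Genes of glutathione metabolism and the NRF2 response were higher in 7 of 22 cases (31.8%) and lower in none. Over all genes the shares were 3.98% and 2.18%. The median of the 22 was 0.60. All 22 were at 1 FPKM or more in both groups. Fth1, the ferritin heavy chain, stood at 242 and 1142 FPKM (difference 2.07), whereas Ftl1, the light chain, stood at 1352 and 1041 FPKM (-0.54). The glutathione transferases Gsta4 (8.73 and 54.6 FPKM) and Gsto1 (153 and 578 FPKM) were higher by 2.35 and 1.75. Nqo1, a quinone reductase (9.11 and 31.6 FPKM), Gpx2, a glutathione peroxidase (35.9 and 111 FPKM), Gclc, the catalytic subunit for glutathione synthesis (23.1 and 64.7 FPKM), and the cystine transporter gene Slc7a11 (4.25 and 11.3 FPKM) were higher as well. The standard NRF2 targets Hmox1 (10.3 and 11 FPKM) and Txnrd1 (16.8 and 16.2 FPKM) differed by -0.07 and -0.21.

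Of 21 glycolysis and hypoxia genes 4 (19.0%) were higher and 1 (4.76%) lower, beside 3.98% and 2.18% of all genes, with a median of 0.38. The 4 were Ndrg1 (11.8 and 53.2 FPKM), the oxygen sensor Egln3 (1.90 and 9.71 FPKM), Bnip3, a mitophagy receptor (8.36 and 24.4 FPKM), and the glucose transporter gene Slc2a1 (108 and 287 FPKM). Hk2, the hexokinase of many tumours, was lower (11.9 and 6.14 FPKM), and Ldha stood at 396 and 345 FPKM. Of 27 stress response genes (integrated stress and unfolded protein) 4 (14.8%) were higher and 1 (3.7%) lower, around a median of 0.00. Cebpb (25.3 and 98.5 FPKM), Slc3a2 (83.0 and 247 FPKM), the mTORC1 inhibitor Ddit4 (24.8 and 66.1 FPKM) and Herpud1 (18.3 and 47.5 FPKM) were the higher ones. Slc3a2 and Slc7a5 encode the 2 chains of one amino acid transporter, and Slc7a5 was lower (49.2 and 21.2 FPKM). Housekeeping sets stayed together: no member of 28 oxidative phosphorylation, 32 ribosomal protein or 26 proteasome genes was past 2-fold, with medians of 0.15, -0.02 and 0.09. Of 18 cholesterol genes, Cyp51 alone was higher (63.0 and 155 FPKM), 5.56% beside 3.98% of all genes.

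Other developmental pathways held single genes past the limit on both sides, where 3.98% and 2.18% of all genes lay. A count of 1 member in a list this short says nothing of the pathway. In the Wnt list, 3 of 21 (14.3%) were higher and 2 (9.52%) lower. Axin2, the feedback target of beta-catenin, stood at 1.28 and 10.6 FPKM (difference 2.18) and the receptor Fzd1 at 40.5 and 121 FPKM (1.39). The ligand Wnt6 stood at 0.387 and 8.28 FPKM (2.58) and entered only through its RasV12 level. The ligand genes Wnt4 (94.3 and 35.6 FPKM) and Wnt7a (3.93 and 1.67 FPKM) were lower. Of 14 Notch genes, Hes6 was higher (9.60 and 41.0 FPKM) and the ligand Jag1 lower (36.2 and 10.2 FPKM, -1.89). In the TGF-beta and BMP list, Tgfbr3, a co-receptor, was the only 1 of 23 (4.35%) higher (0.0271 and 3.05 FPKM). It too entered only through its RasV12 level. Inhba was lower together with Fst, the activin-binding protein follistatin (146 and 80.8 FPKM), and Fstl1 (1.74 and 0.0482 FPKM).

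**Figure D4:**
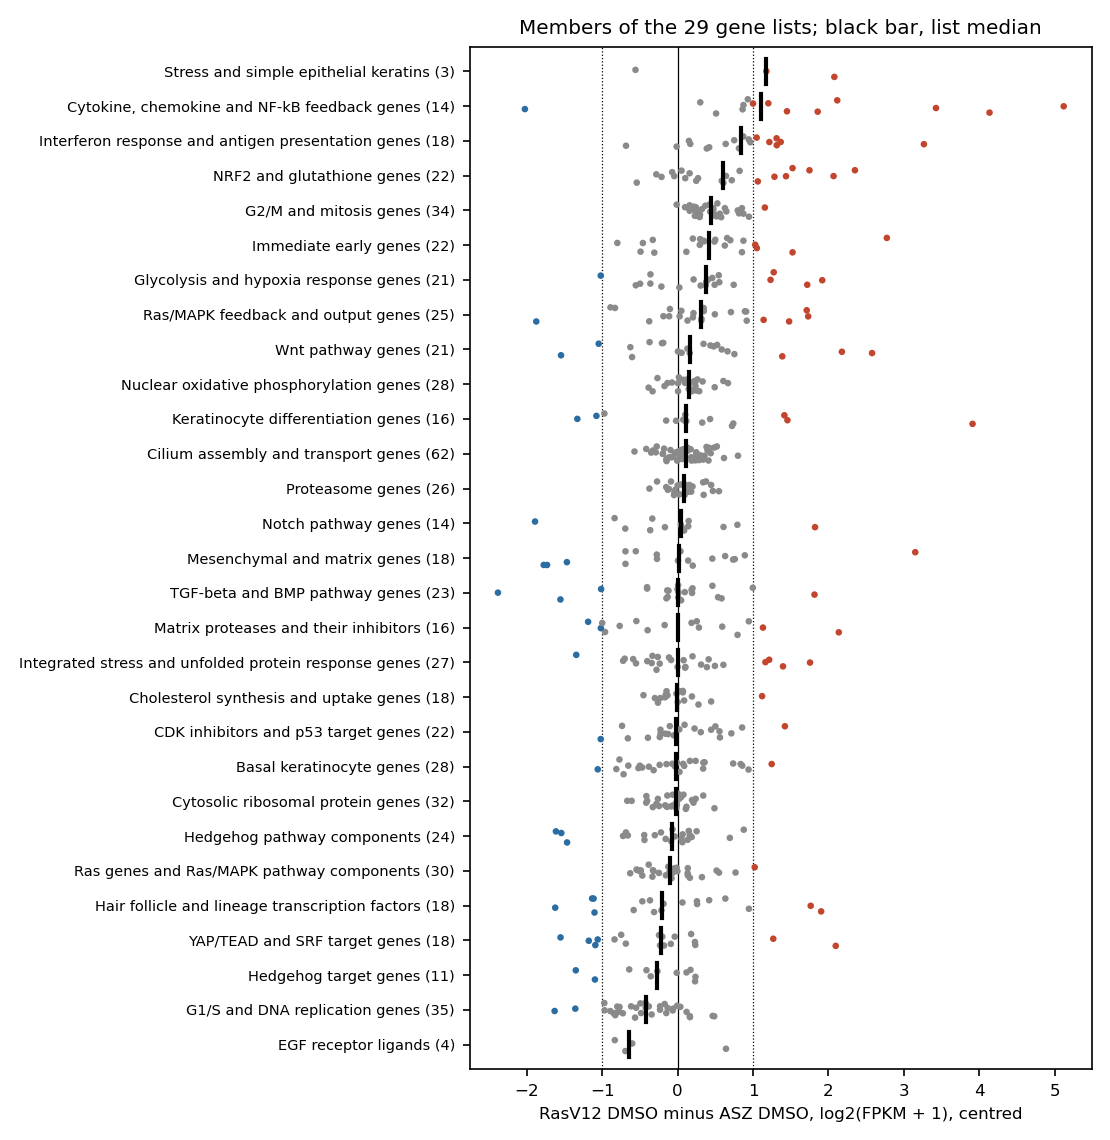
Difference of each member of 29 gene lists (x axis, centred log2 of FPKM + 1, RasV12 minus wild-type under DMSO), 1 point per gene, with the list median as a black bar, dotted lines at 2-fold and the number of genes compared in brackets. The cytokine list has 8 members beyond the right line, while all 62 cilium genes lie between the lines. Without centring the lower genes Lgals7, Mmp10, Cdkn1c, Hk2, Wnt7a and Fst would also lie between them. The height of a point within its row has no meaning.

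The same genes were then read in the CBD groups, which are other libraries of the same cells from the same tables. There 4.85% of the 10895 genes were higher and 2.88% lower in RasV12 cells, after centring on a median of 0.48. Of the 434 genes higher under DMSO, 172 were higher under CBD too (39.6% of the DMSO set and 32.6% of the CBD set), and 9 were lower. Of the 237 lower genes, 85 were lower in both (35.9% and 27.1%), and 10 were higher under CBD. The median CBD difference was 0.83 over the higher and -0.79 over the lower genes. Any effect of the separate tables would be shared by both readings.

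Genes that stood apart under both treatments included Cxcl1 (1.06 and 182 FPKM under CBD), Mgp (0.229 and 36.3 FPKM), Cp (1.77 and 79.6 FPKM), Vim (0.897 and 14.8 FPKM), Icam1 (0.815 and 21.2 FPKM) and Plb1 (56.7 and 5.01 FPKM). Nfkbia, Fth1, Gsto1, Id1, Id3, Axin2, Wnt6, Ccnd2 and Cdh2 were also past 2-fold on the same side in both. Others were not. Dusp1 stood at 46.8 and 27.6 FPKM under CBD (difference -1.22), Gas1 at 4.21 and 12 FPKM (0.83), Jag1 at 8.93 and 28.5 FPKM (1.09) and Amotl2 at 3.24 and 26.6 FPKM (2.22). Depp1 (0.466 and 2.53 FPKM, 0.78), Spry2 (3.09 and 4.78 FPKM, 0.01) and Has2 (0.112 and 0.0927 FPKM, -0.51) were within 2-fold. So were the other ERK outputs called under DMSO, Dusp6 (0.69), Ier3 (0.91) and Hmga2 (0.37), and Mapk3 (0.74). The feedback genes Dusp7 (1.31), Spry1 (1.78) and Spred2 (1.03), under 2-fold with DMSO, were past it under CBD. Of the Hedgehog genes Gli1 (0.682 and 0.630 FPKM, -0.53), Evc (8.36 and 6.16 FPKM, -0.87) and Evc2 (3.61 and 3.95 FPKM, -0.38) were within 2-fold too. Under CBD Gli1 and Has2 were under 1 FPKM in both groups, so their differences mostly reflect the centring on 0.48. Evc2 stood slightly higher in RasV12 cells before that centring. The medians of the G1/S and Hedgehog target lists were 0.18 and 0.10 under CBD, on the other side of 0 from DMSO. Those of the G2/M, cytokine and NRF2 lists were 0.73, 1.36 and 0.21. Whether the 2 readings differ was not tested.

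**Figure D5:**
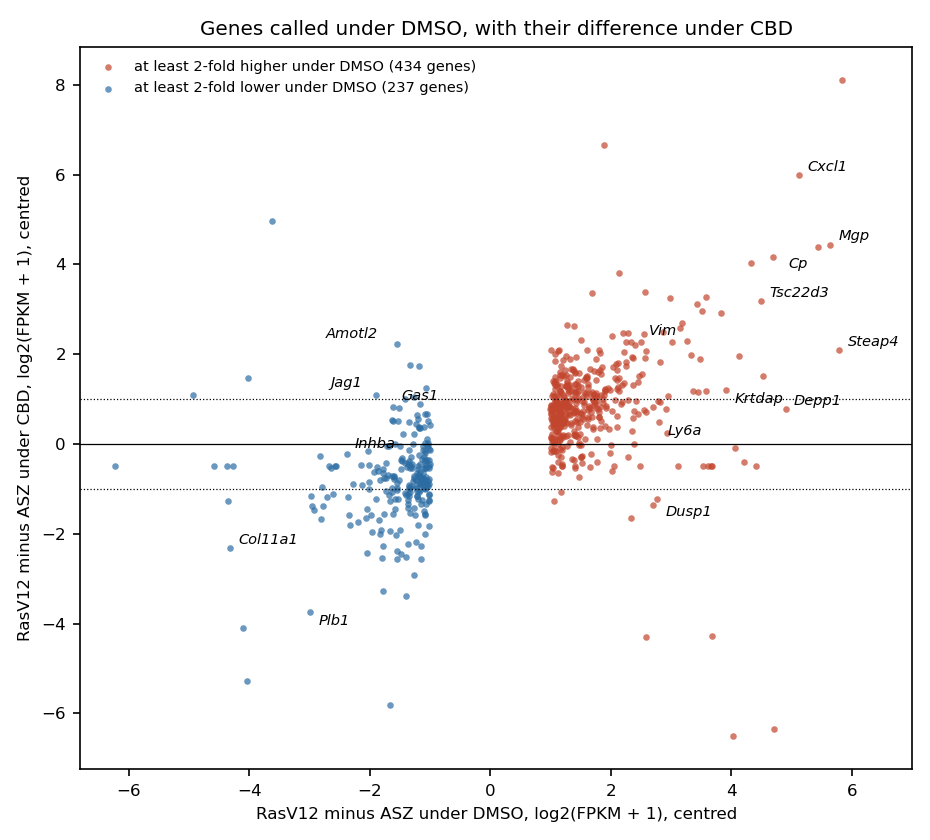
Difference between RasV12 and wild-type cells under DMSO (x axis) and under CBD (y axis) for the 434 genes higher (red) and the 237 lower (blue) under DMSO, each centred on its own median, with dotted lines at 2-fold under CBD. Cxcl1, Mgp and Cp lie at the top right, Plb1 and Col11a1 at the lower left, and Amotl2, Jag1 and Dusp1 on the opposite side under CBD.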

How the data were processed

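RNA was measured in 8 libraries prepared with an Illumina TruSeq kit from total RNA, 2 per group, per the labels' protocols. TopHat and Cufflinks were used with mm9, per the submitters' processing notes, which give no versions. The authors' deposited tables held 1 FPKM per gene and group and a p-value for CBD against DMSO, per the file headers. How they were scaled, and whether 1 annotation served both, was not given.

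Older symbols were replaced through RefSeq synonyms. A symbol on several rows was used only where every other row was at 0, a rule set after the data were seen: taking the highest row had put Dubr, Zc3h12c and Mast1 among the lowest genes, although their other wild-type row was near the RasV12 value (1.35 and 1.84 FPKM for Dubr). It left out 78 wild-type and 13 RasV12 rows at 1 FPKM or more.

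Differences used a pseudocount of 1 FPKM and Python 3.11.15, pandas 2.3.3 and numpy 2.4.6, and were tested on simulated data. Groups with 1 value each allow no test. The implied standard error was the log2 ratio of CBD to DMSO over the normal quantile of the authors' p-value, for p above 0.01. Depth took the lowest FPKM step of genes with 1 GENCODE transcript as 1 fragment in 1 of 2 libraries.

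Members and lists were chosen with earlier results of these data known. Named were the 15 highest and 15 lowest genes above 0 in both groups and at 5 FPKM or more in the higher, up to 4 called members per list and direction, and fixed genes (among them Hras, Nras, Gli1, Ptch1, Smo, Gli2, Krt5, Krt14, Trp63, Cdkn2a, Dusp6, Ccnd1 and Mki67). Other genes were named after their values were seen, and some genes the rule names are not reported here. Alternatives were other pseudocounts, levels, centres, symbol rules and gene classes.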

Additional observations from a re-analysis of the deposited data

How the results depend on the processing

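With a pseudocount of 0.1 FPKM 698 genes were higher and 353 lower, and with 5 FPKM 209 and 96, against 434 and 237. All 209 and 96 were also in the main sets. Under the other alternatives the counts ran from 360 to 634 higher and from 161 to 249 lower. Taking repeated symbols by their highest row gave 436 and 241 genes, a rule set aside after seeing the data. Keeping genes at 5 FPKM or more moved the median of the EGF receptor ligands to -0.10, of the differentiation genes to 0.52, of the hair follicle factors to 0.16, of the wound and simple keratins to 1.63 and of the cytokine list to 2.12. Keeping every gene above 0 gave -0.014 for the ligands, 0.66 for the cytokine list, 0.35 for the interferon list and -0.047 for the keratins, which changed sign because 3 genes at under 1 FPKM were added to 3. With a pseudocount of 5 FPKM the keratins stood at 0.78, the cytokine list at 0.39 and the interferon list at 0.36, and with 0.1 FPKM the cytokine list stood at 2.19. The cause of the other moves was not tested. None of the 122 named genes changed sign past the limit, but 33 of the 110 called ones fell short of 2-fold in at least 1 alternative. No paired analysis was possible because each group had 1 value per gene in columns that carry no replicate. The 2 libraries of a group could not be left out in turn for the same reason.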

Other observations

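Some genes outside the lists stood out after their values were seen. The genes past 2-fold at 1000 FPKM or more in either group were the metallothioneins Mt1 (1103 and 4987 FPKM in wild-type and RasV12 cells under DMSO, difference 2.01) and Mt2 (713 and 4372 FPKM, 2.45), Cst3, which encodes the protease inhibitor cystatin C (706 and 2802 FPKM, 1.82), the calcium-binding S100a6 (457 and 1048 FPKM, 1.03), Fth1 and Lgals7. Under CBD the differences of Mt1 and Mt2 were -0.03 and 0.67.

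Beside Tsc22d3, several other genes that glucocorticoids are known to induce were higher. Fkbp5, a co-chaperone of steroid receptors, stood at 23.5 and 115 FPKM (2.08 under DMSO and 1.78 under CBD), the clock gene Per1 at 14.1 and 68.0 FPKM (2.03 and 2.40), and the zinc finger gene Zbtb16 at 0.0123 and 9.32 FPKM (3.19 and 2.68). Klf9 stood at 12 and 31.4 FPKM (1.15) and Cebpd at 2.28 and 22.8 FPKM (2.69), while the kinase gene Sgk1 was under 2-fold (30.3 and 63.4 FPKM, 0.88). Under CBD Klf9 (0.85), Cebpd (0.82) and Sgk1 (0.36) were all within 2-fold. The receptor gene Nr3c1 stood at 16.1 and 10.8 FPKM (-0.69). These genes were picked for their values, so their shared side supports nothing.

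The Ly6 surface protein genes Ly6a (122 and 956 FPKM, 2.80), Ly6c1 (13.0 and 160.0 FPKM, 3.36) and Ly6d (3.54 and 50.5 FPKM, 3.34) were higher, as was Ifitm3, an interferon-induced membrane protein gene (42.4 and 343 FPKM, 2.82). Under CBD Ly6a was within 2-fold (0.49), while Ly6c1 (1.18), Ly6d (1.98) and Ifitm3 (1.82) were past it. Ly6 genes are near-identical neighbours in part, and how the authors' counting split their reads is not given.

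Listed at 0 in 1 DMSO group and at 5 FPKM or more in the other were 29 genes, of which 26 had names of microRNAs or of small nucleolar or nuclear RNAs. Of the 29, 18 were at 0 in wild-type and 11 in RasV12 cells. Since a 0 can be a failed estimate or a difference between the tables, none is read as a change. The protein-coding ones were Lcn2 (listed at 0 and at 5.61 FPKM) and Pip (listed at 0 and at 7.46 FPKM).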
